A study of Mus musculus with 24 samples.

Results

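The genes described here are 54 genes of G2 phase and mitosis, a list of symbols looked up in the deposited gene count table. All 54 were found among the 24421 gene lines of the table, and all 54 passed the filter on low counts that kept 14205 genes for testing. The table holds 24 bulk RNA-seq libraries from blood stem and progenitor cells of aged (107 weeks) and young (12 weeks) male C57BL/6 mice, with no transgene or treatment in the labels. Each age gave 3 sorted populations and each of the 6 groups has 4 libraries, so the groups are aged LT-HSC, aged ST-HSC, aged MPP, young LT-HSC, young ST-HSC and young MPP.

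All groups came from marrow enriched for CD117 (the receptor Kit) and were sorted as lineage-negative, Sca1-positive, Kit-positive cells. Long-term hematopoietic stem cells (LT-HSC) were positive for CD150 and negative for CD48, short-term stem cells (ST-HSC) lacked both, and multipotent progenitors (MPP) lacked CD150 and carried CD48. The labels count 4 mice of each age and tie no library number to a mouse. On that count libraries of different populations of an age share mice, but which ones is not given. The main fit treated all 24 libraries as independent, and its p-values measure the spread between libraries.

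Before a cell divides, cyclin-dependent kinase 1 with cyclins A and B drives it into mitosis, the chromosomes condense, kinetochores attach them to the spindle, and a contractile ring then splits the cell. The genes for these steps are transcribed together late in the cycle under the MuvB complex with B-MYB and FOXM1, and are held down in resting cells by the DREAM complex. Most LT-HSC in adult marrow rest outside the cycle, and MPP divide more often. In bulk libraries a smaller share of cells in G2 and mitosis cannot be told apart from less RNA of these genes in each such cell.

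Library totals ran from 7307151 to 12946550 counts, with 14416 to 16103 genes detected, and no pair of replicate libraries agreed within counting noise. Levels are read counts per 1e6 counts of the library (CPM) scaled with TMM factors, and tests are edgeR quasi-likelihood tests with Benjamini-Hochberg adjusted p-values over all 14205 genes, called at an adjusted p under 0.05. Slamf1, which encodes CD150, had 64.8, 88.4, 72.3 and 62.7 CPM in aged LT-HSC libraries 1 to 4 and 31.8, 25.4, 23.0 and 24.6 CPM in young LT-HSC, and at most 1.93 CPM in any ST-HSC or MPP library. Cd48 ranged from 62.9 to 97.7 CPM in MPP libraries and did not exceed 3.54 CPM in LT-HSC libraries. Granulocyte markers held 0.0989% of the counts of young LT-HSC library 1, against at most 0.00792% in the other LT-HSC libraries.

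The promoters of the genes share sequence features that the choice of the genes did not use. A cell cycle genes homology region (CHR, searched as TTTGAA) is bound by MuvB, and CCAAT boxes are bound by NF-Y. The RefSeq promoter table for GRCm38.p6, with 250 bases before and 50 after each start, held 49 promoters for 46 of the 54 genes. Ccna2, Cdc25c, Aurkb, Tpx2, Dlgap5, Kif20a, Smc4 and Cdca2 were not matched. On either strand, TTTGAA was present in 38 of the 49 promoters (77.6%), against 17.9% of all 32851 promoters in the table. CCAAT was present in 39 of 49 (79.6%), against 37.4% of all. Both words together were present in 33 of 49 (67.3%), against 6.95% of all. The E2F words TTTGGCGC, TTTCCCGC, TTTCGCGC and TTTGCCGC were present in 2 of 49 (4.08%), against 2.26% of all. These matches are words in a window and not measured binding.

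The upstream bases of 4 genes show how these words lie, read 5′ to 3′ on the strand of the gene, with CHR, CCAAT and E2F words of either strand in capitals. A CCAAT word on the opposite strand therefore reads ATTGG. Cdk1, Ccnb2 and Plk1 are core mitotic genes, and Gas2l3 was added after its values were seen because its pattern differed from the others.
Cdk1 (chr10:69352913-69353162, minus strand): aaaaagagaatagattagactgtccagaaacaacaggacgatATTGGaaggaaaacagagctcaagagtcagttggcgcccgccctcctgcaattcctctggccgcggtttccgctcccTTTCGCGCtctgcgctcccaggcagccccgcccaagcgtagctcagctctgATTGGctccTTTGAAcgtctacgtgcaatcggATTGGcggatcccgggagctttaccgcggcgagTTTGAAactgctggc
Ccnb2 (chr9:70421555-70421804, minus strand): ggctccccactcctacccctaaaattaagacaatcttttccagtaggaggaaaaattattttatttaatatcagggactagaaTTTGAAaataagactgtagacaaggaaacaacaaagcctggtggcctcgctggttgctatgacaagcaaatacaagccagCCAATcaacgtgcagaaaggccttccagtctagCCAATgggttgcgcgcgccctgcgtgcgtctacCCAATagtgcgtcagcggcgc
Plk1 (chr7:122159185-122159434, plus strand): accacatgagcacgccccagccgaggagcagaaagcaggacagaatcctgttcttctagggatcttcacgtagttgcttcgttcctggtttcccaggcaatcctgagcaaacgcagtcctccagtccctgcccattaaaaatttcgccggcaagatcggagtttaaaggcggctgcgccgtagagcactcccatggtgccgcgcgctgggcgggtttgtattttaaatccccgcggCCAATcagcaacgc
Gas2l3 (chr10:89443968-89444217, minus strand): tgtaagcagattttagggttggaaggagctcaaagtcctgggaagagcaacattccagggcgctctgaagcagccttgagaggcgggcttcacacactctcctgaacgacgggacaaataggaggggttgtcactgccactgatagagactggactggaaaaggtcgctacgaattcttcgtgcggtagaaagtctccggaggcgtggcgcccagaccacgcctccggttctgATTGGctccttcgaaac
Cdk1 held the CHR word beginning at positions -71 and -15 from the start, 3 CCAAT words on the other strand and the E2F word TTTCGCGC at -131. These positions count from the RefSeq start. The GENCODE annotation begins Cdk1 farther upstream, at 69352938, so the word at -15 lies inside the gene as annotated there. Ccnb2 held the CHR word at -167 and at 5, beside CCAAT words at -87, -54 and -21. In Plk1 the CHR word began at position 31, past the bases shown, and CCAAT at -14. Gas2l3 held a CCAAT word on the other strand at -17 and no TTTGAA in the window. Ccnb1, also a core mitotic gene, was searched too and held CCAAT words at -99 and -67 and no TTTGAA. Its bases are not shown because its RefSeq start lies inside an exon of the GENCODE annotation. Lack of the word was thus not particular to Gas2l3. Only that exact word was searched as a CHR, and the similar ttcgaa near the end of the Gas2l3 bases was not counted.

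Most of the 54 genes were lowest in LT-HSC and highest in MPP at both ages. The mean CPM increased in the order LT-HSC, ST-HSC, MPP for 53 of 54 genes in aged mice and 45 of 54 in young mice. The highest of the 6 group means was that of young MPP for 45 genes, aged MPP for 8 and aged LT-HSC for 1, Gas2l3. The lowest mean was that of aged LT-HSC for 52 genes. Together the genes held 0.159% ± 0.0692 of the counts in aged LT-HSC, against 0.212% ± 0.0364 in young LT-HSC (SD, n = 4 libraries each). They held 0.349% ± 0.0663 in aged ST-HSC, against 0.254% ± 0.0742 in young ST-HSC. In aged MPP they held 0.611% ± 0.0894, against 0.688% ± 0.0639 in young MPP. Per kilobase of annotated exon, Mki67, Ncapd2 and Lbr stood at 90.0, 91.8 and 79.6 CPM per kb in aged MPP, while Ndc80, Hjurp and Nuf2 stood at 3.68, 3.69 and 4.70 CPM per kb there.

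**Figure D1:**
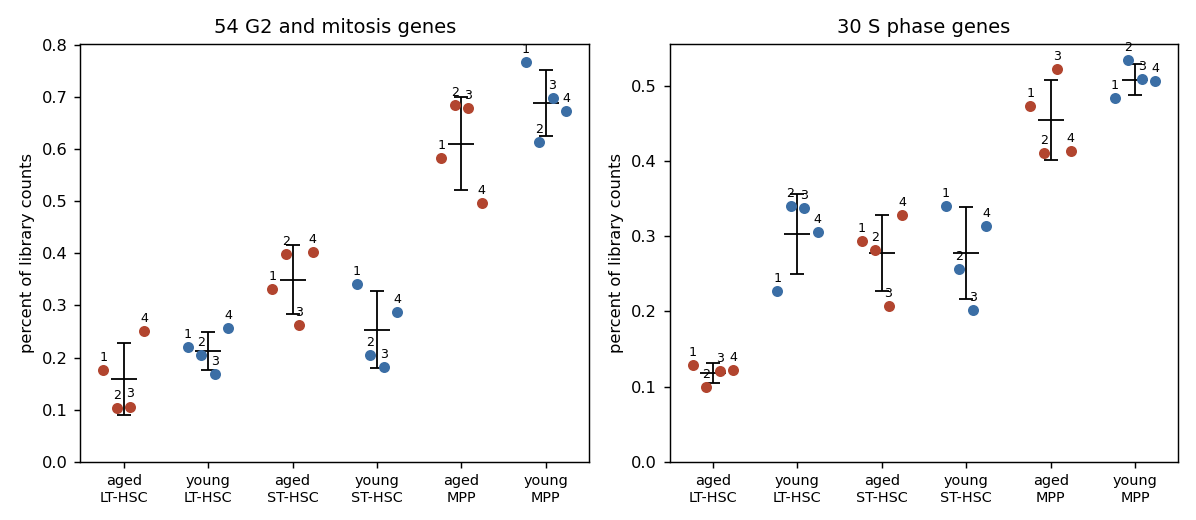
Percent of each library's counts taken by the 54 G2 and mitosis genes (left) and by 30 S phase genes (right), with 1 point per library numbered 1 to 4, and bars for the mean and 1 SD of each group. Aged LT-HSC libraries 1 to 4 lie at 0.176%, 0.104%, 0.106% and 0.250% for the mitotic genes but between 0.0988% and 0.129% for the S phase genes.

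**Figure D2:**
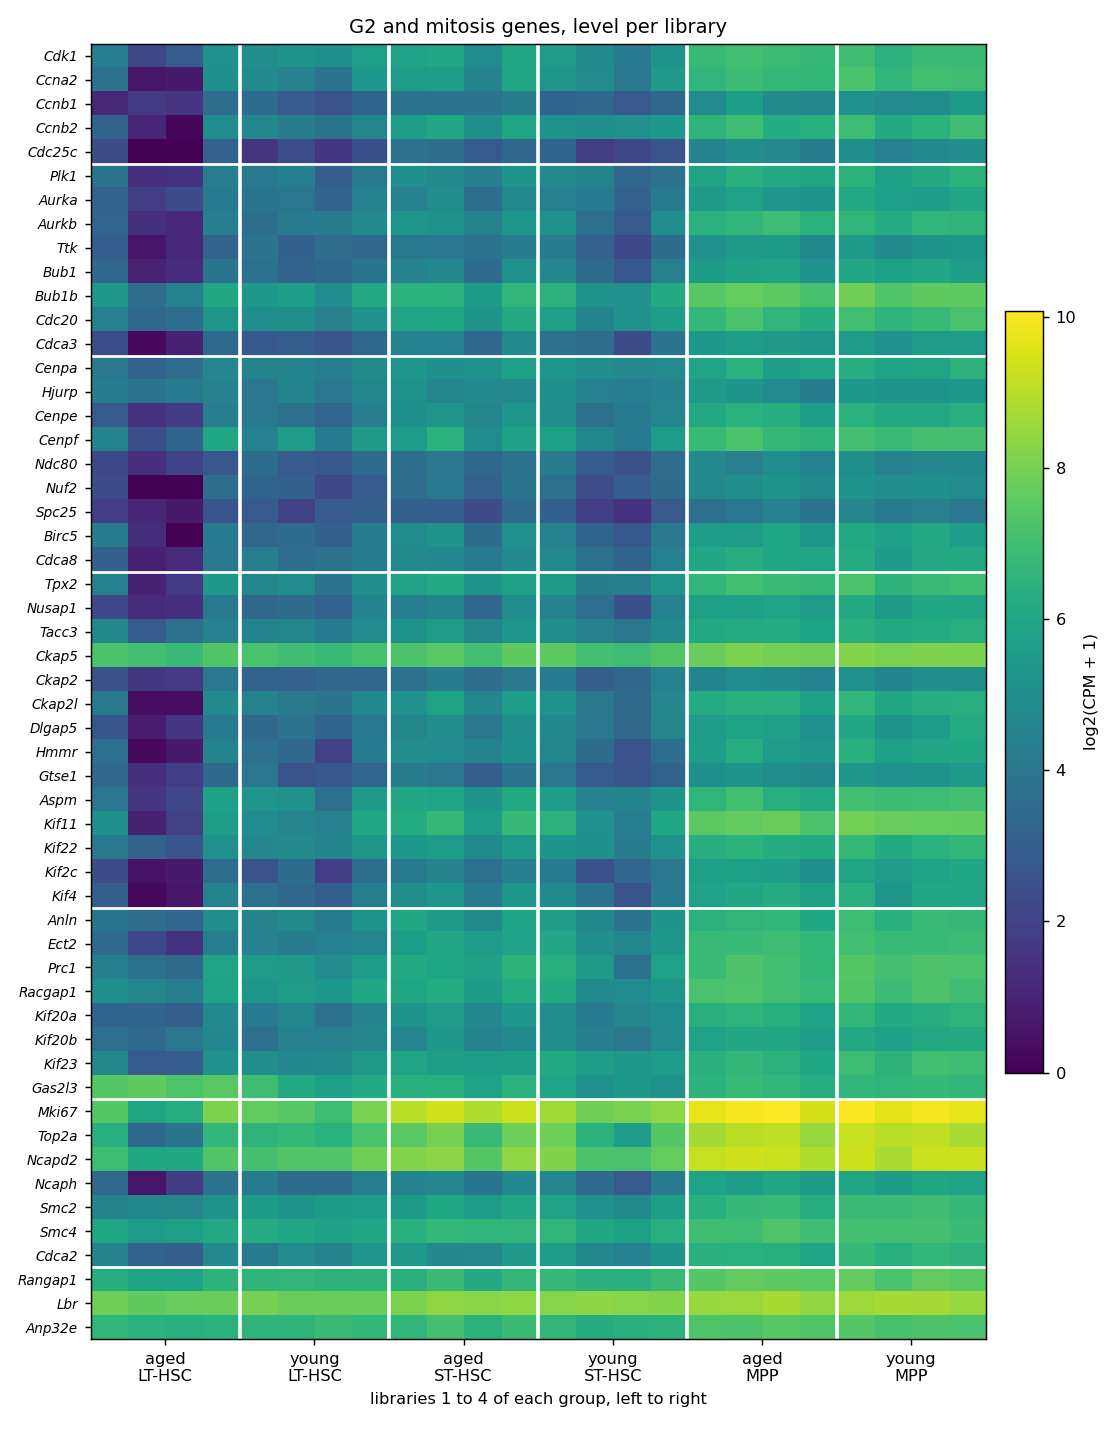
Level of each of the 54 genes (rows, grouped by role) in each of the 24 libraries (columns, libraries 1 to 4 of each group from left to right), as log2(CPM + 1). Most rows brighten toward the MPP columns, aged LT-HSC libraries 2 and 3 are the darkest columns, and the Gas2l3 row is brightest in aged LT-HSC.

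Between populations of aged mice, the fit over all 24 libraries called most of the genes higher in MPP and in ST-HSC than in LT-HSC. It called fewer in MPP against ST-HSC, but that order depended on the fit, as given below. MPP against LT-HSC, 53 genes were higher and 1 lower, with a median log2 difference of 2.60 (all genes -0.02), where 56.8% of all tested genes were called (28.5% higher, 28.3% lower). The 4 aged MPP libraries lay above the 4 aged LT-HSC libraries for 52 genes and below them for Gas2l3 (25.4% and 25.7% of all genes). ST-HSC against LT-HSC, 46 genes were higher and 1 lower, median 1.64, where 32.3% of all genes were called (16.1% higher, 16.2% lower). Here the libraries did not overlap for 20 higher genes and 1 lower (12.6% and 15.5% of all genes). MPP against ST-HSC, 23 genes were higher and none lower, median 1.03, where 29.9% of all genes were called (14.4% higher, 15.5% lower). For 48 genes the aged MPP libraries lay above all aged ST-HSC libraries and for none below (14.3% and 13.0% of all genes). The genes called in ST-HSC against LT-HSC numbered 31 without aged LT-HSC library 2 and 30 without library 3, and 15 in a fit to those groups alone. For MPP against ST-HSC the number was 14, 13 and 13 when aged MPP library 1, 2 or 3 was left out, and 14, 15 and 11 when aged ST-HSC library 1, 2 or 3 was. It was 15 with total count scaling and with no count filter. It was 7 when aged ST-HSC libraries 2 and 3 and library 1 of young LT-HSC were left out together. Both limma-voom and a fit to those groups alone called 49. Fits to the compared groups alone thus reversed the order of these counts, with 49 genes for MPP against ST-HSC and 15 for ST-HSC against LT-HSC. The shares of all genes called belong to the main fit. None is given here for the alternatives, so these counts cannot be told apart from a change in calls over all genes. Granulocyte markers averaged 0.391% of counts in aged MPP, 0.214% in aged ST-HSC and 0.00759% in aged LT-HSC, and B and plasma cell markers 0.429% in aged MPP, 0.0193% in aged ST-HSC and 0.0102% in aged LT-HSC. Their part in these differences was not tested.

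In young mice the step lay between ST-HSC and MPP. MPP against ST-HSC, 51 genes were higher and none lower, median log2 difference 1.82, where 20.6% of all genes were called (10.1% higher, 10.5% lower). The MPP libraries lay above all ST-HSC libraries for each of the 54 genes (12.6% of all genes, with 12.1% below). MPP against LT-HSC, 53 genes were higher, median 2.05, where 37.2% of all genes were called (18.3% higher, 18.9% lower), and 53 lay above without overlap (17.8% of all genes higher, 18.3% lower). The remaining gene was Gas2l3, at 0.36 ± 0.21 (SE, adjusted p = 0.20). ST-HSC against LT-HSC, only Lbr was higher and Gas2l3 lower, median 0.26, where 12.5% of all genes were called (5.74% higher, 6.79% lower). The ST-HSC libraries lay above all LT-HSC ones for Ccnb2, Ect2 and Lbr and below them for none (7.86% and 9.63% of all genes). A fit to those groups alone called 4 genes higher and not Gas2l3 (adjusted p = 0.10), and its share of all genes called is not given here. Granulocyte markers averaged 0.188% of counts in young MPP, 0.0161% in young ST-HSC and 0.0274% in young LT-HSC, and their part was not tested.

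In LT-HSC the age comparison split by library. Called by edgeR, Gas2l3 was higher in aged LT-HSC, and Smc2, Ndc80 and Ect2 were lower, while 18.9% of all tested genes were called (9.98% higher, 8.87% lower). Of the 50 genes not called, 49 had negative log2 changes and Ckap5 a positive one, and the median over the 54 was -0.74 (all genes 0.00). At an unadjusted p under 0.05 stood 1 higher and 14 lower genes, where 31.5% of all genes did. The aged and young libraries did not overlap for Gas2l3, Smc2 and Ndc80, 1 higher gene and 2 lower (12.5% and 9.62% of all genes). Aged library 2 lay below all 4 young LT-HSC libraries for 52 of the 54 genes, library 3 for 50 and library 1 for 28. Aged library 4 lay below them for 3 genes, within their range for 29 and above all of them for 22, and libraries 1, 2 and 3 lay above them for 2, 1 and 1. Over all 14205 tested genes the 4 aged libraries differed little in this count, with 25.0% to 28.2% below the young range and 28.5% to 30.9% above it. Library 4 was the highest aged LT-HSC library for 49 genes, library 2 the lowest for 36 and library 3 for 16. The median SD over the 4 libraries on the log2(CPM + 1) scale was 1.13 for the 54 genes in aged LT-HSC and 0.39 for them in young LT-HSC. Over all tested genes it was 0.21 in aged LT-HSC. Without aged library 4 the test called 33 genes lower and Gas2l3 higher. That library was singled out by these same values, so the larger number follows in part from the choice. Over all fits with 1 LT-HSC library left out, 3 to 34 genes were called. Without library 4, edgeR still did not call Plk1 (adjusted p = 0.11), Bub1 (0.11), Kif11 (0.18), Tpx2 (0.079) or Top2a (0.072). By edgeR, Birc5 (adjusted p = 0.50), Lbr (0.40) and Anp32e (0.21) also stayed uncalled there. With all libraries, limma-voom called 21 lower and 1 higher, and edgeR with the library number as a block called 8 lower and 1 higher. That block joined aged and young libraries of the same number, which cannot share a mouse, so the labels give no ground for it. The 18.9% of all genes belongs to the main fit, and no such share is given here for these alternatives.

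**Figure D3:**
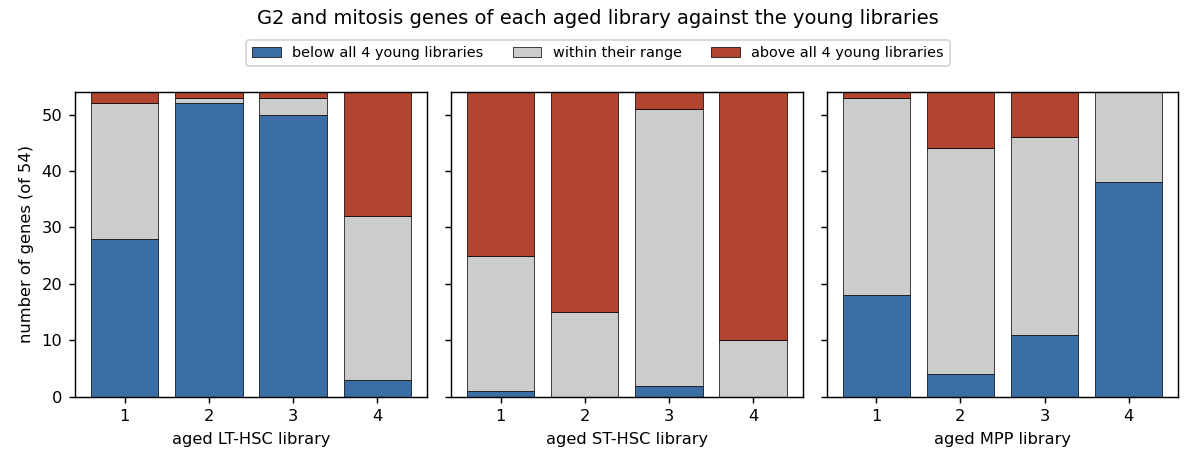
Number of the 54 genes (y axis) for which each aged library (x axis) lay below all 4 young libraries of its population (blue), within their range (grey) or above all of them (red). Aged LT-HSC libraries 2 and 3 have 52 and 50 genes below, library 4 has 22 above, and aged ST-HSC libraries 1, 2 and 4 have 29, 39 and 44 above.

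The S phase genes did not split in this way. Of 30 such genes, which copy DNA or supply its building blocks, 27 were lower in aged LT-HSC and none higher (8.87% and 9.98% of all genes), with a median log2 change of -1.33. In aged LT-HSC libraries 1 to 4, 26, 29, 28 and 26 of the 30 lay below all young LT-HSC libraries (28.2%, 28.2%, 27.4% and 25.0% of all genes). Their summed share was 0.129%, 0.0988%, 0.121% and 0.122% of counts, against 0.227%, 0.340%, 0.338% and 0.306% in young LT-HSC, without overlap. Genes of the LT-HSC program held 0.464%, 0.454%, 0.457% and 0.472% of counts in aged LT-HSC libraries 1 to 4, against 0.350% to 0.446% in young LT-HSC, without overlap. T and NK cell markers held 0.0133%, 0.0104%, 0.0123% and 0.00854% in them, against 0.00367% to 0.00578% in young LT-HSC, also without overlap. Erythroblast markers held 0.00228%, 0.00191%, 0.00553% and 0.00306%, against 0.00325% to 0.0313% in young LT-HSC. Megakaryocyte markers held 0.0233%, 0.0205%, 0.0333% and 0.0192%, against 0.0148% to 0.0252%. The 45S ribosomal RNA line held 5.64%, 6.87%, 6.39% and 6.95% in aged LT-HSC, against 6.85% to 10.9% in young LT-HSC. The part of these measures in the age changes or in the split of the mitotic genes was not tested.

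In ST-HSC the age changes pointed up and Gas2l3 alone passed the threshold, while 5.79% of all tested genes were called (3.58% higher, 2.21% lower). Of the 53 genes not called, 51 had positive log2 changes, and the median over the 54 was 0.57 (all genes 0.01). An unadjusted p under 0.05 was reached by 6 genes, all positive, and by 19.7% of all genes. Aged libraries lay above all young ST-HSC libraries for Ccnb1 and Mki67 and below them for none (5.94% and 4.98% of all genes). Aged ST-HSC libraries 1, 2 and 4 lay above all young ones for 29, 39 and 44 genes, and library 3 for 3, where 25.8%, 28.3% and 26.8% of all genes lay above in libraries 1, 2 and 4 and 27.7% in library 3. Aged library 3 was the lowest aged ST-HSC library for 46 genes, and young library 1 the highest young one for 47. Erythroblast markers held 0.00238% of counts in aged ST-HSC library 3, against 0.0377%, 0.0606% and 0.0592% in libraries 1, 2 and 4, and granulocyte markers held 0.320%, 0.266%, 0.255% and 0.0173% in aged ST-HSC libraries 1 to 4, against 0.00876% to 0.0355% in young ST-HSC. The part of either in the levels of the 54 genes was not tested. The number called was 0 without aged ST-HSC library 4 or young ST-HSC library 2, 3 or 4, 2 without aged library 3, and 4 without young library 1. It was 2 with DESeq2 and with limma-voom, and 3 in a fit to those groups alone. The share of all genes called is not given here for these alternatives.

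In MPP no gene was called by edgeR, DESeq2 or limma-voom, and none of the 54 had an unadjusted p under 0.05 (23.8% of all genes did), while 9.79% of all tested genes were called (5.53% higher, 4.27% lower). Aged and young libraries overlapped for each of the 54 (8.83% of all genes were higher and 7.64% lower without overlap). The log2 changes lay between -0.49 (Kif23) and 0.15 (Aurkb), with a median of -0.16. Aged MPP library 4 was the lowest aged MPP library for 41 genes and lay below all young MPP libraries for 38, against 18, 4 and 11 genes in libraries 1, 2 and 3. Of all genes 30.1% lay below in library 4, against 24.5%, 25.1% and 25.1% in libraries 1, 2 and 3. B and plasma cell markers held 0.908% of its counts, against 0.246%, 0.363% and 0.198% in aged MPP libraries 1 to 3, and their part in the low values was not tested.

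The age changes were also compared between populations. The change in ST-HSC minus that in LT-HSC was called for Smc2 (1.13 ± 0.27, SE, adjusted p = 0.016) and Anp32e (0.59 ± 0.16, SE, adjusted p = 0.036), while 4.05% of all genes were called (2.39% higher, 1.65% lower). The median difference over the 54 genes was 1.35, positive for 53, and 23 reached an unadjusted p under 0.05, as 18.1% of all genes did. The change in MPP minus that in LT-HSC was called for Gas2l3 (-1.26 ± 0.29, SE, adjusted p = 0.0085), while 9.93% of all genes were called (4.89% higher, 5.05% lower). The change in MPP minus that in ST-HSC was called for none, with 2 genes at an unadjusted p under 0.05 (8.62% of all genes) and 0.465% of all genes called (0.282% higher, 0.183% lower), while DESeq2 called Gas2l3 lower (adjusted p = 0.046). For ST-HSC minus LT-HSC the number called was 27 without aged LT-HSC library 4, 8 without young ST-HSC library 1, 5 without aged ST-HSC library 3, and 1 (Smc2) without aged LT-HSC library 2 or 3, aged ST-HSC library 2 or 4, young LT-HSC library 3, or young ST-HSC library 2, 3 or 4. It was 8 with DESeq2, 26 with limma-voom and 1 in a fit to those groups alone. For MPP minus LT-HSC it was 13 without aged LT-HSC library 4, 6 with limma-voom and 2 in a fit to those groups alone. The share of all genes called is not given here for these alternatives. These comparisons share libraries with the age comparisons above.

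**Figure D4:**
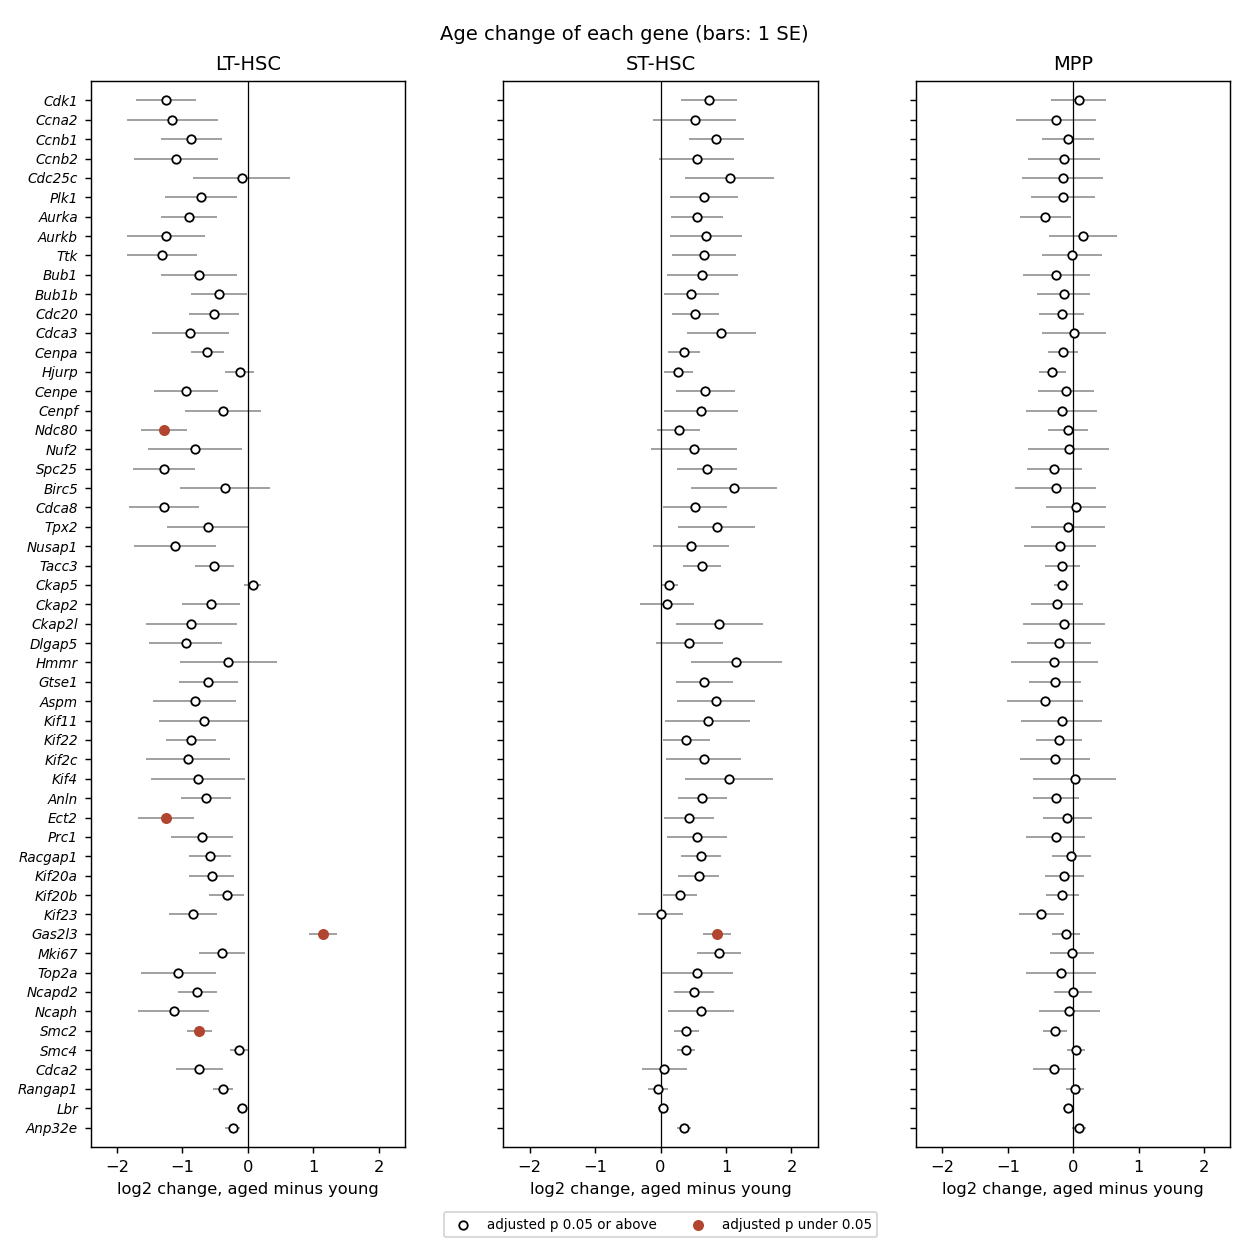
Log2 change with age (aged minus young, x axis) of each of the 54 genes (rows) in LT-HSC, ST-HSC and MPP, with bars of 1 SE and filled points for an adjusted p under 0.05. Points lie mostly left of 0 in LT-HSC (median -0.74), right of it in ST-HSC (median 0.57) and near it in MPP (median -0.16), and the filled points are Ndc80, Ect2, Gas2l3 and Smc2 in LT-HSC and Gas2l3 in ST-HSC.

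The 5 cyclin and CDK genes had median log2 changes with age of -1.09 in LT-HSC, 0.74 in ST-HSC and -0.14 in MPP. The main edgeR test called none, with 1 gene, Cdk1, at an unadjusted p under 0.05 in LT-HSC. In LT-HSC, Cdk1 was lower by DESeq2 (adjusted p = 0.040), limma-voom (0.0046) and edgeR with the block (0.032), and Ccna2 (0.016) and Ccnb2 (0.012) by limma-voom. Cdk1, the kinase that starts mitosis, had 19.6, 3.56, 6.50 and 33.5 CPM in aged LT-HSC libraries 1 to 4, against 30.6, 35.9, 31.9 and 50 CPM in young LT-HSC. Aged libraries 1, 2 and 3 lay below all young ones and library 4 among them, with a log2 change of -1.25 ± 0.46 (SE, adjusted p = 0.064), and -1.95 (adjusted p = 0.0046) without library 4. Cdk1 had 56.6, 59.1, 28.6 and 60.8 CPM in aged ST-HSC, against 45.4, 26.9, 16.7 and 34.4 CPM in young ST-HSC, and 112, 130, 119 and 104 CPM in aged MPP, against 127, 84.5, 116 and 113 CPM in young MPP. Ccnb1, which encodes cyclin B1, had 1.21, 2.24, 1.91 and 11.3 CPM in aged LT-HSC, against 10.4, 6.39, 4.90 and 8.52 CPM in young LT-HSC. Library 4 was above all young LT-HSC libraries and the other aged ones below them all, and the log2 change was -0.86 ± 0.46 (SE, adjusted p = 0.20). In ST-HSC, Ccnb1 had 13.8, 13.6, 13.6 and 18.1 CPM in aged libraries, against 8.51, 9.28, 5.97 and 9.21 CPM in young libraries, without overlap but at 0.85 ± 0.42 (SE, adjusted p = 0.27). Its MPP levels were 28.0, 48.2, 26.7 and 24.0 CPM in aged MPP, against 32.8, 28.3, 29.5 and 44.0 CPM in young MPP. Ccna2, which encodes cyclin A2, had 12.9, 0.508, 0.638 and 32.7 CPM in aged LT-HSC, against 27.3, 21.1, 13.2 and 40.7 CPM in young LT-HSC. Cdc25c, a phosphatase that activates CDK1, had 0 counts in aged LT-HSC libraries 2 and 3, where 3 counts would be 0.305 and 0.383 CPM, and 4.11 and 8.05 CPM in libraries 1 and 4. Exons of Ccna2 share bases with those of Exosc9 on the opposite strand over 12.5% of their length, and reads from the overlap cannot be told apart.

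The 8 mitotic kinases and checkpoint genes had median changes of -0.81 in LT-HSC, 0.65 in ST-HSC and -0.16 in MPP. The main edgeR test called none, with 2 genes at an unadjusted p under 0.05 in LT-HSC, and limma-voom called Aurkb (adjusted p = 0.029) and Ttk (0.021) lower there. Plk1, a kinase of spindle poles and kinetochores, had 13.7, 1.63, 1.79 and 18.9 CPM in aged LT-HSC, against 16.0, 19.5, 7.30 and 15.8 CPM in young LT-HSC. It had 32.2, 26.4, 18.6 and 35.7 CPM in aged ST-HSC, against 27.3, 22.6, 8.90 and 12.7 CPM in young ST-HSC. In aged MPP it had 55, 82.5, 70.4 and 61.8 CPM, against 89.5, 51.9, 69.9 and 90.1 CPM in young MPP. Aged LT-HSC libraries 2 and 3 were the lowest of all 24, and the MPP libraries of both ages overlapped. Aurkb, the kinase of the chromosomal passenger complex, had 8.71, 1.63, 1.15 and 19.4 CPM in aged LT-HSC, against 11.5, 16.6, 16.9 and 27.2 CPM in young LT-HSC, a log2 change of -1.25 ± 0.60 (SE, adjusted p = 0.16), and -2.28 (adjusted p = 0.014) without aged library 4. Its levels were 38.1, 34.1, 20.7 and 39.4 CPM in aged ST-HSC, against 35.4, 12.2, 6.16 and 29.3 CPM in young ST-HSC, and 85.9, 98.9, 123 and 89.2 CPM in aged MPP, against 95.1, 74.9, 97.0 and 91.8 CPM in young MPP. It had the largest difference of the 54 genes between aged MPP and aged LT-HSC, 3.70 ± 0.61 (SE, adjusted p = 4.1e-05). Bub1, a kinase of the spindle checkpoint that delays separation until all chromosomes are attached, had 9.68, 1.02, 1.40 and 14.3 CPM in aged LT-HSC, against 11.7, 8.17, 9.49 and 14.2 CPM in young LT-HSC. Aged libraries 2 and 3 lay below all young ones and library 4 at their top. Its levels were 21.4, 25.3, 10.4 and 35.1 CPM in aged ST-HSC, against 24.3, 10.2, 5.87 and 19.7 CPM in young ST-HSC, and 43.5, 52.9, 57.2 and 35.5 CPM in aged MPP, against 64.7, 52.5, 60.1 and 48.8 CPM in young MPP. Ttk, another checkpoint kinase, had the most negative log2 change in LT-HSC, -1.31 ± 0.54 (SE, adjusted p = 0.097).

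Of the 9 centromere and kinetochore genes the main edgeR test called Ndc80, and the medians were -0.81 in LT-HSC, 0.53 in ST-HSC and -0.16 in MPP. Ndc80, the microtubule-binding subunit that gives its complex its name, was lower in aged LT-HSC, with 3.51, 1.63, 3.19 and 5.73 CPM against 10.9, 6.51, 5.84 and 10.6 CPM in young LT-HSC. Every aged library lay below every young one, and the log2 change was -1.28 ± 0.35 (SE, adjusted p = 0.012). In ST-HSC it had 11.5, 15.0, 9.61 and 12.8 CPM in aged libraries, against 18.1, 6.55, 4.64 and 11.3 CPM in young libraries, which overlap. Its MPP levels were 26, 20.0, 28.8 and 20.8 CPM in aged MPP, against 31.0, 20.6, 24.6 and 25.1 CPM in young MPP. Its partner Nuf2 had no count in aged LT-HSC libraries 2 and 3, with 4.11 and 11.1 CPM in libraries 1 and 4, and was called by limma-voom (adjusted p = 0.019) but not by edgeR. In LT-HSC limma-voom also called Spc25 (0.049), Cenpe (0.034) and Cdca8 (0.0087) lower, DESeq2 Spc25 (0.030), and edgeR with the block Spc25 (0.034) and Cenpa (0.033). Cenpa, the histone H3 variant that marks centromeres, had 14.8, 8.03, 11.0 and 24.1 CPM in aged LT-HSC, against 21.5, 21.6, 19.1 and 26.5 CPM in young LT-HSC, a log2 change of -0.62 ± 0.25 (SE, adjusted p = 0.091), and -1.0 (adjusted p = 0.0031) without aged library 4. It rose in aged ST-HSC over aged LT-HSC, with 38.4, 32.3, 35.0 and 51.1 CPM in aged ST-HSC and no overlap, 1.44 ± 0.25 (SE, adjusted p = 9.7e-05). Young ST-HSC had 37.9, 30.8, 25.8 and 28.4 CPM of Cenpa, and its MPP levels were 58.3, 85.1, 48.7 and 57.6 CPM in aged MPP, against 76.5, 56.2, 58.2 and 88.2 CPM in young MPP. Birc5, which encodes survivin of the passenger complex, had 18.0, 1.52, 0 and 16.6 CPM in aged LT-HSC, against 8.90, 10.5, 7.71 and 18.3 CPM in young LT-HSC. It was at 0 counts in aged library 3, while library 1 lay near the highest young library. Birc5 had 28.9, 35.4, 10.9 and 33.3 CPM in aged ST-HSC, against 21.0, 8.41, 5.78 and 15.2 CPM in young ST-HSC, and 49.5, 46.5, 60.0 and 39.7 CPM in aged MPP, against 67.8, 53.5, 66.3 and 48.1 CPM in young MPP.

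The 14 spindle genes and kinesins had medians of -0.72 in LT-HSC, 0.66 in ST-HSC and -0.21 in MPP. The main edgeR test called none, with 1 gene at an unadjusted p under 0.05 in LT-HSC and 1 in ST-HSC. In LT-HSC limma-voom called Aspm (adjusted p = 0.037), Dlgap5 (0.050), Ckap2l (0.019), Tpx2 (0.039) and Kif22 (0.017) lower, and edgeR with the block Kif22 (0.042). Kif11, the kinesin that pushes spindle poles apart, had 32.1, 0.915, 2.93 and 48.8 CPM in aged LT-HSC, against 29.2, 22.7, 20.1 and 60.4 CPM in young LT-HSC. Aged libraries 1 and 4 lay within the young range and libraries 2 and 3 far below it. Kif11 had 74.8, 103, 46.6 and 107 CPM in aged ST-HSC, against 87.1, 32.9, 18.8 and 64.2 CPM in young ST-HSC, and 185, 203, 224 and 145 CPM in aged MPP, against 242, 211, 204 and 201 CPM in young MPP. Tpx2, a spindle assembly factor that activates Aurora A, had 20.6, 0.915, 2.30 and 39.9 CPM in aged LT-HSC, against 23.5, 28.0, 13.2 and 31.3 CPM in young LT-HSC. Tpx2 had 55.5, 69.6, 36.0 and 51.9 CPM in aged ST-HSC, against 44.2, 18.0, 18.7 and 37.6 CPM in young ST-HSC. In aged MPP its levels were 102, 129, 113 and 103 CPM, against 144, 90.3, 113 and 123 CPM in young MPP. Ckap5, a microtubule polymerase also used outside mitosis, kept the library order of the split over a narrower range, with 147, 131, 114 and 161 CPM in aged LT-HSC, against 146, 125, 112 and 141 CPM in young LT-HSC. It rose in MPP over ST-HSC at both ages, by 0.57 ± 0.13 (SE, adjusted p = 0.0012) in aged and 0.88 ± 0.13 (SE, adjusted p = 2.0e-05) in young mice, and over LT-HSC in young mice by 1.08 ± 0.13 (SE, adjusted p = 1.9e-07).

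Among the 8 cytokinesis genes (medians -0.61 in LT-HSC, 0.57 in ST-HSC and -0.16 in MPP), Ect2 was called in the direction of most genes in LT-HSC and Gas2l3 against it. There limma-voom also called Kif23 lower (adjusted p = 0.016). Ect2, the exchange factor that activates RhoA at the cleavage site, had 10.5, 3.56, 1.79 and 19.6 CPM in aged LT-HSC, against 21.4, 18.3, 20.6 and 23.5 CPM in young LT-HSC. Aged libraries 1 to 3 lay below all young ones and library 4 among them, and the log2 change was -1.25 ± 0.43 (SE, adjusted p = 0.047). That call was lost without aged LT-HSC library 1 (adjusted p = 0.066), 2 (0.13) or 3 (0.10), without any 1 young LT-HSC library (0.062 to 0.095), with no count filter (0.063), with aged ST-HSC libraries 2 and 3 and library 1 of young LT-HSC left out together (0.087), and in a fit to those groups alone (0.23). In aged ST-HSC, Ect2 had 47.7, 65.0, 45.1 and 56.4 CPM, above every aged LT-HSC library, 2.60 ± 0.42 (SE, adjusted p = 8.6e-05). Racgap1, part of centralspindlin at the spindle midzone, had 31.0, 23.1, 19.0 and 56.0 CPM in aged LT-HSC, against 37.6, 46.9, 41.0 and 65.8 CPM in young LT-HSC. It had 64.0, 73.6, 43.5 and 71.7 CPM in aged ST-HSC, against 70.7, 27.1, 29.2 and 38.2 CPM in young ST-HSC, and was called in neither population. In MPP the levels were 144, 156, 134 and 113 CPM in aged MPP, against 162, 119, 154 and 125 CPM in young MPP. Kif20a, a kinesin of the midzone, shares 29.3% of its exon bases with Cdc23 on the opposite strand.

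Gas2l3, which links actin filaments to microtubules and is needed for cytokinesis in human cells, was highest in aged LT-HSC. It had 169, 198, 156 and 181 CPM there, against 125, 70.2, 50.8 and 71.0 CPM in young LT-HSC, without overlap, and the log2 change was 1.15 ± 0.21 (SE, adjusted p = 4.8e-04). It also rose in aged ST-HSC, with 81.0, 82.3, 54.5 and 86.8 CPM against 58.5, 33.5, 41.0 and 35.6 CPM in young ST-HSC, 0.86 ± 0.21 (SE, adjusted p = 0.020). Aged library 3 overlapped the young ST-HSC libraries, and this call was lost without aged ST-HSC library 4 (adjusted p = 0.051) or young ST-HSC library 2 (0.067), 3 (0.055) or 4 (0.066). In MPP it had 89.3, 109, 101 and 76.6 CPM in aged libraries, against 102, 95.9, 106 and 102 CPM in young libraries, -0.11 ± 0.21 (SE, adjusted p = 0.81). Between populations Gas2l3 ran against the other genes, lower in aged ST-HSC than in aged LT-HSC (-1.21 ± 0.21, SE, adjusted p = 1.2e-04) and lower in aged MPP than in aged LT-HSC (-0.90 ± 0.21, SE, adjusted p = 8.3e-04). It was also lower in young ST-HSC than in young LT-HSC (-0.91 ± 0.21, SE, adjusted p = 0.0055), where library 1 of both groups was the highest and the groups overlapped. Aged LT-HSC libraries 2 and 3, the lowest for most of the 54 genes, had 198 and 156 CPM of Gas2l3, and library 2 the highest level of it among all 24.

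**Figure D5:**
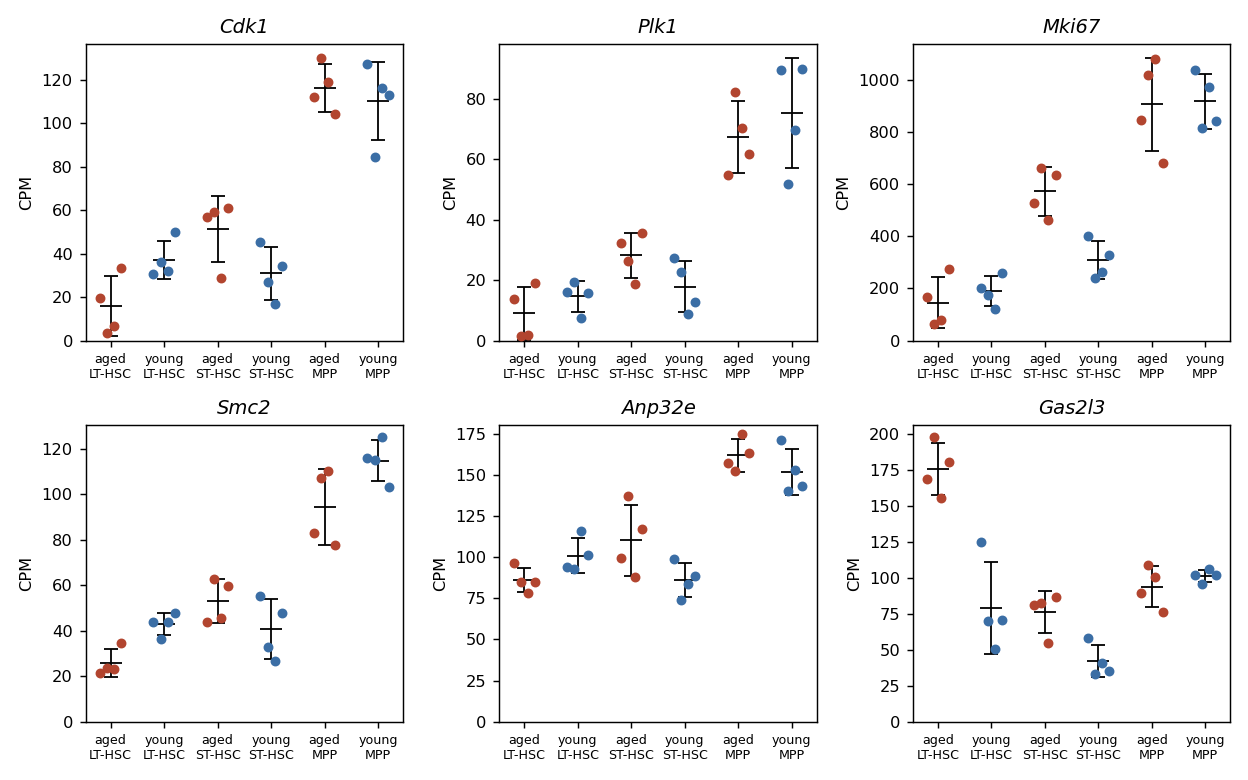
CPM of Cdk1, Plk1, Mki67, Smc2, Anp32e and Gas2l3 in each library (points, aged red and young blue), with the mean and 1 SD of each group. Cdk1, Plk1 and Mki67 spread widely within aged LT-HSC, Smc2 is lower in all 4 aged LT-HSC libraries than in the young ones, and Gas2l3 is highest in aged LT-HSC at 156 to 198 CPM.

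Of the 7 chromosome structure genes the main edgeR test called Smc2 in LT-HSC, where limma-voom also called Top2a (adjusted p = 0.023), Ncaph (0.018) and Ncapd2 (0.025) lower, and edgeR with the block Ncapd2 (0.046). The medians were -0.74 in LT-HSC, 0.51 in ST-HSC and -0.06 in MPP. Mki67, whose protein coats mitotic chromosomes and is the common marker of cycling cells, had 169, 62.0, 77.7 and 275 CPM in aged LT-HSC, against 203, 176, 121 and 261 CPM in young LT-HSC. Aged libraries 2 and 3 lay below all young LT-HSC libraries and library 4 above them, at -0.39 ± 0.35 (SE, adjusted p = 0.49). In ST-HSC it had 529, 663, 463 and 635 CPM in aged libraries, against 401, 240, 264 and 329 CPM in young libraries. Those ST-HSC values did not overlap, but the log2 change was 0.89 ± 0.34 (SE, adjusted p = 0.15), with an adjusted p of 0.035 by limma-voom and 0.022 in a fit to those groups alone. Mki67 had 846, 1020, 1080 and 681 CPM in aged MPP, against 1040, 816, 975 and 844 CPM in young MPP. Top2a, the topoisomerase that untangles sister chromatids, had 80.9, 9.65, 13.6 and 101 CPM in aged LT-HSC, against 92.2, 103, 84.6 and 145 CPM in young LT-HSC, -1.06 ± 0.57 (SE, adjusted p = 0.21). Top2a had 178, 259, 114 and 231 CPM in aged ST-HSC, against 232, 85.3, 45.3 and 169 CPM in young ST-HSC, and 416, 525, 553 and 365 CPM in aged MPP, against 599, 519, 550 and 447 CPM in young MPP. Aged ST-HSC library 3 and young ST-HSC libraries 2 and 3 were its lowest in ST-HSC. Smc2, the core ATPase of condensin, was lower in aged LT-HSC, with 21.5, 23.8, 23.2 and 34.6 CPM against 43.9, 36.3, 44.0 and 47.7 CPM in young LT-HSC. All 4 aged libraries lay below all 4 young ones, library 4 included, and the log2 change was -0.74 ± 0.19 (SE, adjusted p = 0.0077), with adjusted p-values of 0.0014 to 0.028 over the alternatives. In aged ST-HSC it had 43.9, 62.9, 45.4 and 59.7 CPM, against 55.2, 32.8, 26.5 and 47.7 CPM in young ST-HSC, and in aged MPP 82.8, 107, 110 and 77.6 CPM, against 116, 115, 125 and 103 CPM in young MPP. Its condensin partner Smc4 was not called by edgeR in LT-HSC, at -0.13 ± 0.14 (SE, adjusted p = 0.57). Ncapd2, a condensin I subunit, had 123, 63.3, 62.9 and 161 CPM in aged LT-HSC, against 135, 163, 161 and 238 CPM in young LT-HSC, -0.77 ± 0.30 (SE, adjusted p = 0.085), and -1.09 (adjusted p = 0.018) without aged library 4. Ncapd2 had 292, 323, 170 and 340 CPM in aged ST-HSC, against 289, 149, 146 and 208 CPM in young ST-HSC, and 581, 655, 597 and 468 CPM in aged MPP, against 628, 450, 619 and 628 CPM in young MPP.

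The 3 genes with roles outside mitosis had medians of -0.23 in LT-HSC, 0.04 in ST-HSC and 0.03 in MPP. The main edgeR test called none, with 1 gene at an unadjusted p under 0.05 in LT-HSC and 1 in ST-HSC. DESeq2 called Anp32e higher in aged ST-HSC (adjusted p = 0.035), and Rangap1 was lower in aged LT-HSC with total count scaling (0.050) and in a fit to those groups alone (0.048). Lbr, the lamin B receptor of the nuclear envelope, had 230, 194, 211 and 226 CPM in aged LT-HSC, against 256, 220, 216 and 222 CPM in young LT-HSC. It rose in MPP over LT-HSC, 0.82 ± 0.08 (SE, adjusted p = 5.9e-09) in aged and 0.82 ± 0.08 (SE, adjusted p = 1.7e-08) in young mice, and in ST-HSC over LT-HSC, 0.53 ± 0.08 (SE, adjusted p = 1.7e-05) in aged and 0.41 ± 0.08 (SE, adjusted p = 0.0010) in young mice. Lbr had 270, 339, 311 and 325 CPM in aged ST-HSC, against 301, 322, 300 and 292 CPM in young ST-HSC, and 370, 375, 433 and 339 CPM in aged MPP, against 383, 430, 426 and 369 CPM in young MPP, with overlap between the ages in both. Rangap1, which makes Ran hydrolyse its GTP, had 76.8, 56.3, 57.3 and 91.5 CPM in aged LT-HSC, against 91.8, 95.5, 88.9 and 90.0 CPM in young LT-HSC, -0.38 ± 0.15 (SE, adjusted p = 0.075). It rose in aged MPP over aged ST-HSC, 1.01 ± 0.15 (SE, adjusted p = 1.1e-05). Rangap1 had 83.7, 115, 71.4 and 100 CPM in aged ST-HSC, against 105, 84.3, 82.2 and 109 CPM in young ST-HSC, and 169, 203, 190 and 181 CPM in aged MPP, against 201, 145, 202 and 178 CPM in young MPP. Anp32e, a chaperone that removes the histone variant H2A.Z, had 96.3, 84.9, 78.1 and 84.9 CPM in aged LT-HSC, against 94.0, 92.6, 116 and 101 CPM in young LT-HSC. In ST-HSC it had 99.3, 137, 87.8 and 117 CPM in aged libraries, against 98.6, 73.9, 83.9 and 88.3 CPM in young libraries. Its MPP levels were 157, 152, 175 and 163 CPM in aged MPP, against 171, 140, 153 and 143 CPM in young MPP. Its changes were -0.23 ± 0.11 (SE, adjusted p = 0.16) in LT-HSC and 0.36 ± 0.11 (SE, adjusted p = 0.061) in ST-HSC. The difference of these changes was called, but its adjusted p was between 0.050 and 0.074 in a fit to those groups alone or without any 1 of 8 libraries, those numbered 2 and 3 of aged LT-HSC, 2 and 4 of aged ST-HSC, 3 of young LT-HSC, and 2 to 4 of young ST-HSC.

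Genes that control the 54 or act beside them were read from lists of other G2 and mitosis genes. Of 140 such genes tested, 36 were lower and 4 higher in aged LT-HSC (median log2 change -0.45), where 8.87% of all genes were lower and 9.98% higher. Of the same 140, 2 were higher in aged ST-HSC (median 0.20, with 3.58% of all genes higher), and 1 was higher and 2 lower in aged MPP (median -0.10, with 5.53% and 4.27% of all genes). In the list of DREAM and MuvB subunits and partners, 5 of 13 were lower and 2 higher in aged LT-HSC, read against the same shares. Mybl2, which encodes B-MYB, had 8.71, 2.13, 9.57 and 10.2 CPM in aged LT-HSC, against 14.8, 14.6, 31.5 and 29.4 CPM in young LT-HSC, -1.58 ± 0.41 (SE, adjusted p = 0.0097). Tfdp1, the dimer partner of E2F, had 97.3, 88.4, 76.9 and 83.0 CPM in aged LT-HSC, against 133, 141, 138 and 130 CPM in young LT-HSC, -0.65 ± 0.10 (SE, adjusted p = 1.8e-05). Both were below the young range in all 4 aged libraries. Rbl1, which encodes p107, fell by a log2 change of -0.76 ± 0.17 (SE, adjusted p = 0.0027), and Rbl2, which encodes the p130 pocket protein of DREAM, rose by 0.38 ± 0.07 (SE, adjusted p = 5.0e-04). Foxm1 followed the 54 genes instead, with 35.1, 5.28, 5.36 and 28.7 CPM in aged LT-HSC, against 28.0, 28.0, 27.0 and 45.6 CPM in young LT-HSC, and was not called, -0.80 ± 0.52 (SE, adjusted p = 0.32).

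In the CDK1 switch and anaphase-promoting complex list, 6 of 27 were lower and none higher in aged LT-HSC, where 8.87% of all genes were lower and 9.98% higher. They included Wee1, which encodes the kinase that restrains CDK1 (-0.73 ± 0.11, SE, adjusted p = 2.0e-05), Cdc25a, the phosphatase opposing it (-0.74 ± 0.12, SE, adjusted p = 5.5e-05), and Cks1b, a CDK-binding subunit (-1.47 ± 0.28, SE, adjusted p = 4.7e-04). Of 38 other kinetochore and checkpoint genes, 14 were lower and none higher. Cenpk, a protein of the inner kinetochore, had 1.45, 0.407, 0.383 and 2.56 CPM in aged LT-HSC, against 8.42, 7.79, 6.15 and 4.87 CPM in young LT-HSC, -2.50 ± 0.44 (SE, adjusted p = 1.8e-04), and Cenpn (-1.64 ± 0.29, SE, adjusted p = 1.9e-04) and Zwilch (-1.25 ± 0.27, SE, adjusted p = 0.0016) were also lower. Of 17 cohesin, separase and condensin genes, 3 were lower, among them the condensin II subunits Ncapg2 (-1.26 ± 0.37, SE, adjusted p = 0.023) and Ncaph2 (-0.31 ± 0.09, SE, adjusted p = 0.012), and 2 were higher, among them the cohesin subunit Smc1a (0.32 ± 0.08, SE, adjusted p = 0.0077). Counts this small are not read as set apart from the 8.87% lower and 9.98% higher of all genes. Ncapg2 lost its call without aged LT-HSC library 2 or 3 (adjusted p = 0.067 each), without young LT-HSC library 4 (0.069) and in a fit to those groups alone (0.055), and Smc1a without aged LT-HSC library 1 (0.054). Of 45 other spindle and cytokinesis genes, 8 were lower and none higher, among them Ran (-0.48 ± 0.09, SE, adjusted p = 6.0e-04), the gamma-tubulin gene Tubg1 (-0.89 ± 0.18, SE, adjusted p = 0.0011) and the alpha-tubulin gene Tuba1b (-1.11 ± 0.22, SE, adjusted p = 0.0012).

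From a list of cell cycle inhibitors and quiescence genes 11 were tested. Of these, 3 were higher and 1 lower in aged LT-HSC, 3 higher in aged ST-HSC, and 3 higher and 1 lower in aged MPP. Of all genes 9.98% were higher and 8.87% lower in LT-HSC, 3.58% and 2.21% in ST-HSC, and 5.53% and 4.27% in MPP. Counts this small are not read as set apart from those shares, and the genes called lower fell outside the rule for naming genes. Cdkn1a, which encodes the CDK inhibitor p21, had 57.6, 35.1, 44.4 and 32.6 CPM in aged LT-HSC, against 4.51, 8.17, 3.75 and 8.6 CPM in young LT-HSC, 2.75 ± 0.27 (SE, adjusted p = 7.7e-08). It had 25.1, 33.8, 27.4 and 28.1 CPM in aged ST-HSC, against 5.13, 4.26, 8.62 and 7.10 CPM in young ST-HSC, 2.18 ± 0.27 (SE, adjusted p = 2.0e-05). In aged MPP it had 49.2, 58.5, 59.2 and 47.1 CPM, against 13.4, 8.71, 16.7 and 21.0 CPM in young MPP, 1.84 ± 0.25 (SE, adjusted p = 3.5e-05). Aged and young libraries did not overlap in any of the populations. Btg2, an antiproliferative cofactor, was higher in aged LT-HSC by 1.92 ± 0.16 (SE, adjusted p = 2.3e-08). Cdkn1b (-0.20 ± 0.13, SE, adjusted p = 0.33) and Cdkn1c (-0.10 ± 0.20, SE, adjusted p = 0.79), which encode p27 and p57, were not called in LT-HSC. Within aged LT-HSC, Cdkn1a was 57.6 CPM in library 1 and 32.6 CPM in library 4, the library with the highest mitotic gene levels, and 35.1 and 44.4 CPM in libraries 2 and 3.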

How the data were processed

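RNA from sorted marrow cells was made into libraries with PrimeScript reverse transcriptase, not-so-random primers, Klenow second strand synthesis and Nextera XT, per the labels' protocols. This chemistry does not mark strand. The deposited values are read counts per gene, not normalized, in 1 table for all 24 libraries. The submitters' processing notes name Trim Galore, HISAT2, featureCounts and mm10, while versions, strand setting and gene annotation were not given in the sources used here.

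Both the 54 genes and the other lists were chosen with earlier results of these data known. Counts were fitted with edgeR 4.0.16 in R 4.3.3: filterByExpr kept 14205 genes with 99.9% of counts, TMM scaled the libraries, and 6 group means were fitted over all 24 libraries (18 residual degrees of freedom, common dispersion 0.0454) with quasi-likelihood tests and Benjamini-Hochberg adjustment at 0.05. The 12 comparisons are contrasts of these means, each the first-named group minus the second, and SE was taken from the log2 change and its F value. Alternatives were RLE and total count scaling, no filter, DESeq2 1.42.0, limma-voom (limma 3.58.1), a fit to the compared groups only, the library number as a block, leaving out each library, and leaving out together aged ST-HSC libraries 2 and 3 and library 1 of young LT-HSC. In age comparisons and their differences the block joined aged and young libraries of the same number, although these cannot share a mouse. In population comparisons it joined libraries of the same number within an age. The procedure was tested on simulated data that gave each gene the same dispersion in all 6 groups. It therefore cannot show how the tests act on genes whose spread differs between groups, as for the 54 genes in aged LT-HSC. Counting noise between replicates was checked with a chi-square per degree of freedom, which was at least 5.87.

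Every library's level is given for 18 genes of known role. Further genes are those of smallest p past the threshold, up to 5 per age comparison and 3 per population comparison or other list, and any called against most of the list. Genes called for a difference of age changes are also named. For Smc2, Rangap1, Anp32e and Smc4, population differences that met this rule are in part not printed. Foxm1, Mybl2, Cdkn1a, Cdkn1b and Cdkn1c were always named. Cyclin, checkpoint and overlap examples outside that rule (Ccna2, Cdc25c, Nuf2, Ttk, Kif20a, Ckap5 and Smc4 in LT-HSC, and the genes called by other tools) were chosen after their values were seen. Exon lengths and overlaps come from GENCODE M21, and promoters from RefSeq GRCm38.p6.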

Additional observations from a re-analysis of the deposited data

Results flagged for a closer look

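Within single groups, 7 of 138 sets of 4 libraries (5.07%) had a highest or lowest library far from the other 3, and chance gives about 1 in 20. Cdk1 was 28.6 CPM in aged ST-HSC library 3, where the others lay between 56.6 and 60.8 CPM. Ccnb1 was 11.3 CPM in aged LT-HSC library 4 (others 1.21 to 2.24), 18.1 CPM in aged ST-HSC library 4 (others 13.6 to 13.8) and 48.2 CPM in aged MPP library 2 (others 24.0 to 28.0). Ncapd2 was 450 CPM in young MPP library 2 (others 619 to 628), Lbr 256 CPM in young LT-HSC library 1 (others 216 to 222) and Smc4 159 CPM in aged MPP library 3 (others 124 to 127).

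The age change differed between populations for several genes by the edgeR interaction test with adjusted p-values. ST-HSC minus LT-HSC, the log2 change differed by 0.59 for Anp32e (0.036) and 1.13 for Smc2 (0.016). Of the other G2 and mitosis genes it differed by 2.82 for Cenpk (0.0054), 2.20 for Mybl2 (0.031), 2.00 for Cks1b (0.0025), 1.98 for Cenpn (0.0039), 1.74 for Zwilch (0.0073), 0.95 for Tfdp1 (8.9e-05), 0.94 for Cdc25a (0.0011) and -0.57 for Rbl2 (0.0016). MPP minus LT-HSC, it differed by -1.26 for Gas2l3 (0.0085), 2.01 for Cenpk (0.025), 1.78 for Mybl2 (0.043), 1.48 for Cks1b (0.011), 1.43 for Cenpn (0.017) and 1.17 for Tuba1b (0.018). The difference was 0.82 for Tfdp1 (1.8e-04), 0.81 for Cdc25a (0.0020), 0.80 for Tubg1 (0.043), 0.48 for Ran (0.020), -0.62 for Rbl2 (3.0e-04) and -0.86 for Btg2 (0.017). Both differences use the same LT-HSC libraries.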

How the results depend on the processing

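Of 776 alternative values of named genes that were called, inside and outside the 54, 747 stayed called in the same direction, 29 lost the call and 0 reversed. Many of these genes were named for a small p in these same data, and most alternatives share nearly all libraries. Much of this agreement was therefore fixed in advance. Of 1008 alternative values of named genes that were not called, 26 passed the threshold. The number of the 54 genes called moved by over 1.5 times as follows, and the cause was not tested. Shares of all genes called are given for the main fit only. The numbers below, also with libraries left out, cannot be told apart from a change in calls over all genes. For age in LT-HSC (4 called) it was 22 with limma-voom. For age in ST-HSC (1 called) it was 2 with DESeq2 (Anp32e added), 2 with limma-voom (Mki67 added) and 3 in a fit to the compared groups (Ccnb1 and Mki67 added). For the age change in ST-HSC minus LT-HSC (2 called) it was 8 with DESeq2, 26 with limma-voom and 1 in the compared groups. For MPP minus ST-HSC (0 called) it was 1 with DESeq2 and 1 when aged ST-HSC libraries 2 and 3 and library 1 of young LT-HSC were left out together. For MPP minus LT-HSC (1 called) it was 6 with limma-voom and 2 in the compared groups. For aged ST-HSC against LT-HSC (47 called) it was 15 in the compared groups. For aged MPP against ST-HSC (23 called) it was 15 with total count scaling, 15 with no filter, 49 with limma-voom, 49 in the compared groups and 7 without the 3 libraries. For young ST-HSC against LT-HSC (2 called) it was 4 in the compared groups.

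Leaving out 1 library at a time, the number ranged from 3 to 34 for age in LT-HSC, 0 to 4 in ST-HSC and 0 to 0 in MPP. It ranged from 1 to 27 for ST-HSC minus LT-HSC, 0 to 0 for MPP minus ST-HSC and 1 to 13 for MPP minus LT-HSC. In aged mice it ranged from 30 to 53 for ST-HSC against LT-HSC, 11 to 19 for MPP against ST-HSC and 54 to 54 for MPP against LT-HSC. In young mice the ranges were 2 to 2, 37 to 50 and 52 to 54.

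The library number as a replicate block gave 9 called genes for age in LT-HSC and 4 for ST-HSC minus LT-HSC. Here the block joined aged and young libraries of the same number, which cannot share a mouse. Libraries with the same number correlated by -0.04 to 0.12 between populations of an age, over 0.1 in 3 of 24 pairs, against 3 of 72 pairs with other numbers, and were not treated as pairs. The labels do not say whether they share a mouse.

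Only uncalled log2 changes with age turned sign. In ST-HSC, Lbr was -0.03 without the 3 libraries. In MPP, Mki67 was 0.01 and Ncapd2 0.02 with the block, and Rangap1 -0.02 with total count scaling. Leaving out 1 library, the ranges that crossed 0 were -0.95 to 0.04 for Birc5 in LT-HSC, and in ST-HSC -0.14 to 0.08 for Rangap1 and -0.08 to 0.03 for Cdkn1b. In MPP they were -0.11 to 0.10 for Mki67, -0.03 to 0.16 for Cdk1, -0.35 to 0.07 for Ccnb1, -0.18 to 0.04 for Ndc80, -0.18 to 0.05 for Tpx2, -0.10 to 0.05 for Racgap1, -0.12 to 0.08 for Ncapd2, -0.06 to 0.09 for Rangap1, -0.07 to 0.16 for Cdkn1b and -0.36 to 0.02 for Cdkn1c.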

Other observations

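Of the 30 S phase genes, 27 were lower with age in LT-HSC (8.87% of all genes). In aged ST-HSC 1 was higher and none lower (median log2 change 0.06), where 3.58% of all genes were higher and 2.21% lower. In aged MPP none was called by edgeR (0 at an unadjusted p under 0.05), where 9.79% of all genes were called. The age change was called higher in ST-HSC than in LT-HSC for 21 of the 30 (median difference 1.37), against 2.39% of all genes. It was called higher in MPP than in LT-HSC for 20, against 4.89% of all genes. Their summed share was 0.277% ± 0.0510 of counts in aged ST-HSC and 0.278% ± 0.0613 in young ST-HSC, and 0.455% ± 0.0533 in aged MPP and 0.508% ± 0.0207 in young MPP (SD, n = 4 libraries each).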
